A study of Bos taurus with 6 samples.

Results

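The glucocorticoid receptor and 9 of its well-known target genes were followed in the longissimus thoracis muscle (LT) of 6 Korean cattle (Hanwoo) steers. The set was chosen by name as the receptor gene NR3C1 and the targets FKBP5, TSC22D3, KLF9, KLF15, DDIT4, SGK1, CEBPD, ZBTB16 and PDK4, which is 10 of the 23015 gene rows counted. All 10 had 1 row each and all 10 passed the filter on low counts, as did 15039 rows in all. The steers differed in the number of fine marbling particles (NFMP), that is, of small flecks of fat counted in an image of the ribeye. For the sequenced steers the study also reports a higher marbling score, rib eye area and auction price in the high-NFMP group. A difference between the groups therefore cannot be assigned to NFMP alone. The high-NFMP group held steers 3-8, 10-8 and 10-9, aged 32.5, 33.8 and 34.5 months, and the low-NFMP group held steers 3-1, 3-3 and 10-16, aged 37.8, 33.7 and 35.4 months. All were castrated males raised in the usual way on commercial feed, each gave 1 library, and the study selected them for their NFMP. Each library was primed at the poly(A) tail, and between 16283873 and 17192750 reads were counted on genes in each.

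Cortisol, the main glucocorticoid of cattle, enters the cell and binds the receptor, which waits in the cytosol in a complex with HSP90 and its helper proteins. The loaded receptor moves to the nucleus, where it binds DNA at glucocorticoid response elements and raises the transcription of its direct targets. In skeletal muscle this response is known for slowing protein synthesis, raising protein breakdown and shifting fuel use from glucose to fatty acids, and in adipose cells glucocorticoids promote differentiation. Neither cortisol nor the receptor protein was measured in these libraries.

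In the comparison of the high-NFMP with the low-NFMP group, the 10 genes did not share a direction. TSC22D3 and FKBP5 were counted less often in every steer of the high-NFMP group than in those of the low-NFMP group, at 0.604 and 0.659 of the low-NFMP level, whereas KLF9 was counted more often in each high-NFMP steer, at 1.73 times the low-NFMP level. NR3C1 itself, ZBTB16, KLF15 and CEBPD had fold changes between 1.02 and 1.05. With the threshold of the study, an unadjusted p below 0.05 together with a fold change above 2, 0 of the 10 genes passed, where 3.90% of all tested rows did. When p from the quasi-likelihood test of edgeR was adjusted over all tested rows by the Benjamini-Hochberg method, 0 of the 10 were below 0.05, where 0.685% of all tested rows were. At an unadjusted p below 0.05 in that test, 3 of the 10 passed, 1 higher and 2 lower, where 11.5% of all tested rows did (5.73% higher and 5.74% lower). In these same 3 genes the groups did not overlap, as in 17.1% of all tested rows. With DESeq2 in place of edgeR, 2 of the 10, TSC22D3 and KLF9, had an adjusted p below 0.05 (0.0269 and 0.0374), where 1.94% of all tested rows did. With limma 0 of the 10 did, where 0.465% of all tested rows did. The median log2 fold change of the 10 genes was 0.04, against 0.02 for all tested rows, and 6 of the 10 had a positive value, as did 51.9% of all tested rows. With 3 steers a group the smallest p of an exact permutation test is 0.1. A smaller p from edgeR, DESeq2 or limma rests on the distribution each tool assumes and on a spread estimated from many genes together.

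**Figure D1:**
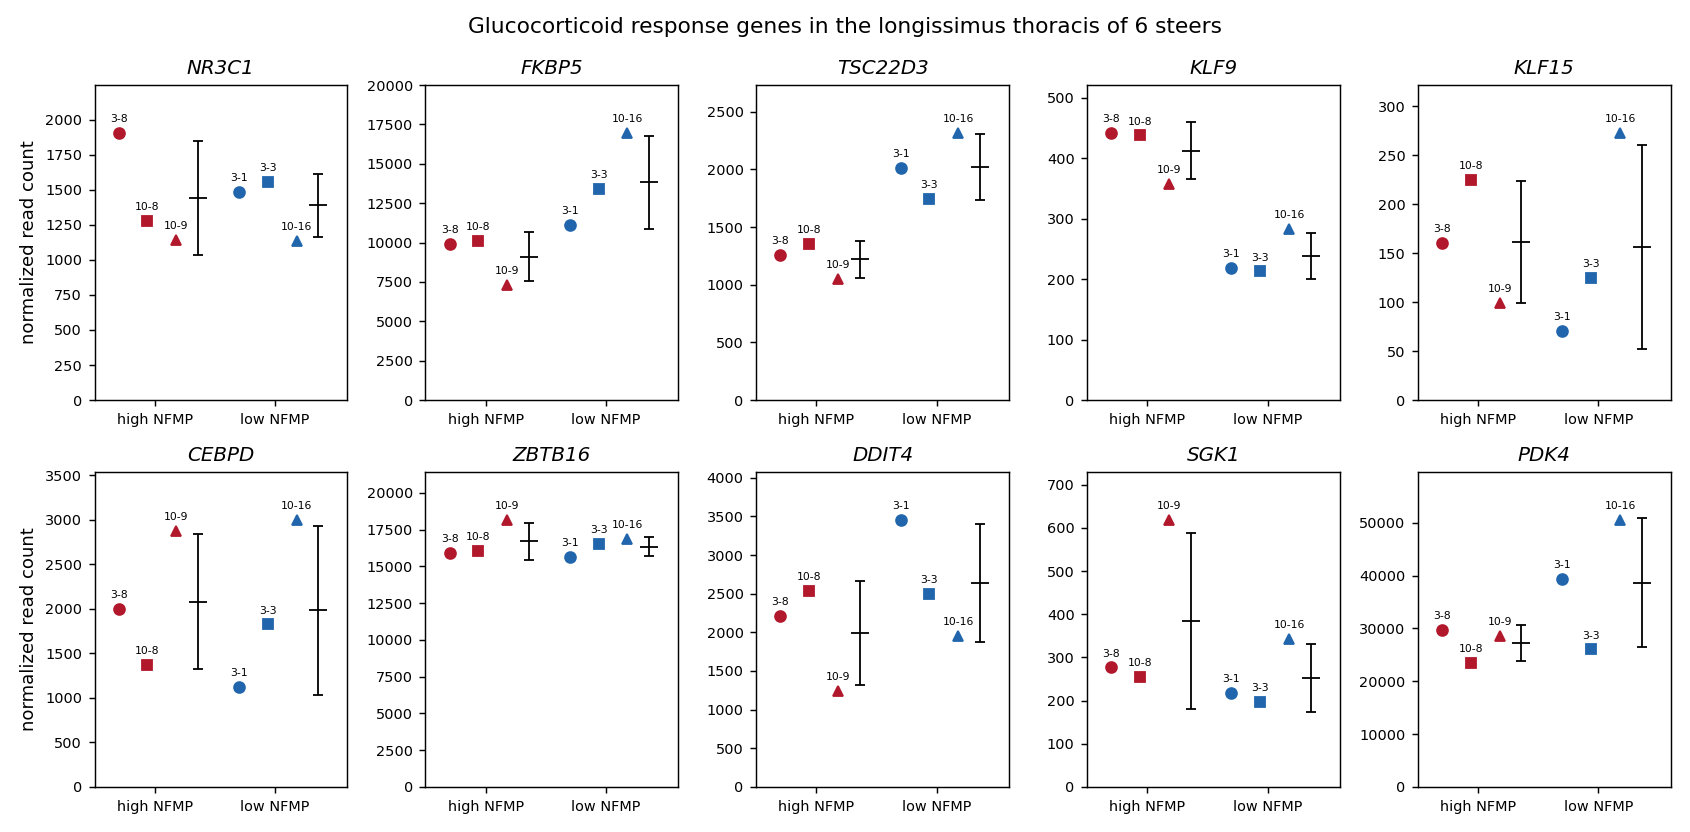
Normalized read count of each of the 10 genes in each steer, on a linear axis that starts at 0, with high-NFMP steers in red, low-NFMP steers in blue, and the mean and SD of each group (n = 3) as a black bar. TSC22D3, FKBP5 and KLF9 are the genes in which the groups do not overlap.

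NR3C1 encodes the glucocorticoid receptor, the transcription factor of which the other 9 genes are known targets. Its normalized read counts (counts scaled to a common effective library size) were 1904, 1275 and 1141 in steers 3-8, 10-8 and 10-9 of the high-NFMP group, and 1483, 1554 and 1135 in steers 3-1, 3-3 and 10-16 of the low-NFMP group, the order kept for all genes. The groups overlapped, with steer 3-8 highest and steers 10-16 and 10-9 about equally low. The means were 1440.1 ± 407 (SD, n = 3) and 1391 ± 224 (SD, n = 3), and the log2 fold change was 0.05 (standard error, SE, 0.22, 95% interval from -0.41 to 0.51, adjusted p = 0.948 by edgeR). The interval left out a change of 2-fold in either direction. The steers whose label begins with 3 lay above all those whose label begins with 10, and NR3C1 was the 1 gene of the 10 in which these labels did not overlap, as in 14.2% of all tested rows. The sources used here do not say what that number stands for, and the pattern was noticed after the values were seen. The log2 fold change between the NFMP groups was 0.21 with the number as a term (adjusted p = 0.743 by edgeR) and -0.21 without steer 3-8 (adjusted p = 0.636), and the 14 alternative fits gave adjusted p from 0.636 to 0.993. In ARS-UCD2.0 the long noncoding RNA gene LOC107132646 overlaps NR3C1, and its log2 fold change was 0.13 (adjusted p = 0.889). Since use of strand in counting is not stated, reads from overlapping genes cannot be told apart, here and in KLF9, ZBTB16 and SGK1.

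FKBP5 encodes FKBP51, an HSP90 cochaperone that lowers the affinity of the receptor for hormone and whose gene the receptor induces, which makes a short negative feedback loop. Its normalized read counts were 9917, 10111 and 7322 in the high-NFMP steers and 11111, 13407 and 16958 in the low-NFMP steers. The groups did not overlap, with the high-NFMP steers below, and the nearest pair, steers 10-8 and 3-1, lay close together. The means were 9117 ± 1557 (SD, n = 3) against 13825 ± 2946 (SD, n = 3), which came to a log2 ratio of high over low of -0.60 (SE 0.22, 95% interval from -1.06 to -0.14, adjusted p = 0.292 by edgeR, unadjusted p = 0.0141). The value was smaller without the steers at either end. Without steer 10-16, the highest, the log2 fold change was -0.40 (unadjusted p = 0.116 by edgeR), and without steer 10-9, the lowest, it was -0.45 (unadjusted p = 0.0717 by edgeR).

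TSC22D3 encodes GILZ, a leucine zipper protein induced by glucocorticoids that restrains inflammatory transcription factors. It had 1259, 1357 and 1047 normalized read counts in the high-NFMP steers and 2009, 1744 and 2315 in the low-NFMP steers. The groups were well apart, and the steers within each group differed by at most 1.33-fold. The means were 1221 ± 158 (SD, n = 3) against 2023 ± 286 (SD, n = 3), which came to a log2 ratio of high over low of -0.73 (SE 0.19, 95% interval from -1.13 to -0.33, adjusted p = 0.109 by edgeR, unadjusted p = 0.00145). The unadjusted p stayed below 0.05 in all 14 alternative fits, and the log2 fold change stayed between -0.83 and -0.59. The adjusted p in these fits ran from 0.0269, with DESeq2, to 0.436, with age as a term. Steer 10-16 was the highest and steer 10-9 the lowest of the 6 for both TSC22D3 and FKBP5.

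KLF9 encodes a zinc finger transcription factor that the receptor induces directly and that is also a thyroid hormone target. Its normalized read counts were 442, 438 and 358 in the high-NFMP steers and 219, 213 and 283 in the low-NFMP steers. The groups did not overlap, with the high-NFMP steers above, the opposite order to TSC22D3 and FKBP5. The means were 413 ± 47.3 (SD, n = 3) against 238 ± 38.6 (SD, n = 3), which came to a log2 ratio of high over low of 0.79 (SE 0.21, 95% interval from 0.35 to 1.23, adjusted p = 0.115 by edgeR, unadjusted p = 0.00164). In all 14 alternative fits the unadjusted p stayed below 0.05 and the log2 fold change lay between 0.71 and 0.96, with an adjusted p from 0.0374, with DESeq2, to 0.494, with age as a term. KLF9 overlaps SMC5 in ARS-UCD2.0, and SMC5, a subunit of a chromosome maintenance complex, had a log2 fold change of 0.12 (adjusted p = 0.846 by edgeR). Sharing of reads between KLF9 and SMC5 was not tested.

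KLF15 encodes another zinc finger factor, which in muscle drives the breakdown of branched-chain amino acids and the use of lipid. It was the least evenly counted of the 10 genes, with 160.1, 224 and 99.3 normalized read counts in the high-NFMP steers and 70.8, 125 and 273 in the low-NFMP steers. The low-NFMP steers held both the lowest and the highest value, which differed by 3.85-fold. The means of 161 ± 62.6 (SD, n = 3) and 156 ± 104 (SD, n = 3) gave a log2 fold change of 0.05 (SE 0.47, 95% interval from -1.01 to 1.11, adjusted p = 0.979 by edgeR). This interval reached 2-fold in both directions, so it left out neither a rise nor a fall of that size in KLF15. Without steer 10-16 the log2 fold change was 0.74 (unadjusted p = 0.0678 by edgeR), and without steer 3-1 it was -0.30.

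CEBPD encodes C/EBPδ, which responds within hours to glucocorticoids and acts early in adipocyte differentiation. It had 2002, 1369 and 2873 normalized read counts in the high-NFMP steers and 1119.5, 1826 and 3001 in the low-NFMP steers. The spread lay within the groups rather than between them, with steers 10-9 and 10-16 high and steers 10-8 and 3-1 low. The log2 fold change was 0.07 (SE 0.37, 95% interval from -0.77 to 0.92, adjusted p = 0.959 by edgeR). Without steer 10-16 it was 0.53 (unadjusted p = 0.115 by edgeR) and without steer 10-9 it was -0.22.

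ZBTB16 encodes PLZF, a zinc finger repressor that is among the most strongly glucocorticoid-induced genes in several tissues. Its normalized read counts were 15910.2, 16055 and 18165 in the high-NFMP steers and 15629, 16520.3 and 16885 in the low-NFMP steers. It was nearly level across the 6 steers, with 1.16-fold between the highest and the lowest, and 1.38% of all tested rows had a smaller spread within groups. The means were 16710.0 ± 1262 (SD, n = 3) and 16345 ± 646 (SD, n = 3), and the log2 fold change was 0.03 (SE 0.19, 95% interval from -0.36 to 0.43, adjusted p = 0.962 by edgeR). The overlapping long noncoding RNA gene LOC101907641 had a log2 fold change of -0.02 (adjusted p = 0.987).

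DDIT4 encodes REDD1, a stress-induced protein that holds back mTORC1 and thereby protein synthesis. It had 2207, 2538 and 1243 normalized read counts in the high-NFMP steers and 3456, 2499 and 1958 in the low-NFMP steers. The groups overlapped, with steer 10-9 lowest and steer 3-1 highest. The log2 fold change was -0.40 (SE 0.27, 95% interval from -0.99 to 0.19, adjusted p = 0.616 by edgeR). It was -0.14 without steer 10-9 and -0.16 without steer 3-1.

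SGK1 encodes a serum- and glucocorticoid-induced kinase related to AKT that acts on ion transport and cell survival. Its normalized read counts were 277, 256 and 619 in the high-NFMP steers and 217, 197 and 343 in the low-NFMP steers. Steer 10-9 alone stood high, and the other 2 high-NFMP steers lay below steer 10-16. The log2 fold change was 0.61 (SE 0.35, 95% interval from -0.16 to 1.37, adjusted p = 0.548 by edgeR). Without steer 10-9 it was 0.09, and without steer 10-8 or 10-16 it was 0.87 or 0.93 (unadjusted p = 0.0308 and 0.0273 by edgeR). The long noncoding RNA genes that overlap SGK1, LOC112448063 and LOC104969596, had 3 and 1 counts in all libraries together.

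PDK4 encodes pyruvate dehydrogenase kinase 4, which switches off the entry of pyruvate into the citric acid cycle in fasting muscle and which fatty acids induce as well as glucocorticoids. It was among the 50 rows with the most counts, with 29716, 23441 and 28604 normalized read counts in the high-NFMP steers and 39431, 26047 and 50589 in the low-NFMP steers. Steers 3-1 and 10-16 stood above the other 4, and steer 3-3 of the low-NFMP group lay among the high-NFMP steers. The means were 27254 ± 3348 (SD, n = 3) and 38689 ± 12288 (SD, n = 3), which came to a log2 ratio of high over low of -0.51 (SE 0.24, 95% interval from -1.02 to 0.01, adjusted p = 0.451 by edgeR, unadjusted p = 0.0556). Without steer 10-16 the log2 fold change was -0.23 (unadjusted p = 0.387 by edgeR), and without steer 3-3 it was -0.73 (unadjusted p = 0.00938 by edgeR). With age as a term it was -0.33 (unadjusted p = 0.342 by edgeR). Of the related kinases, PDK1, PDK2 and PDK3 had log2 fold changes of -0.16, -0.04 and 0.38, with adjusted p of 0.838, 0.967 and 0.652.

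**Figure D2:**
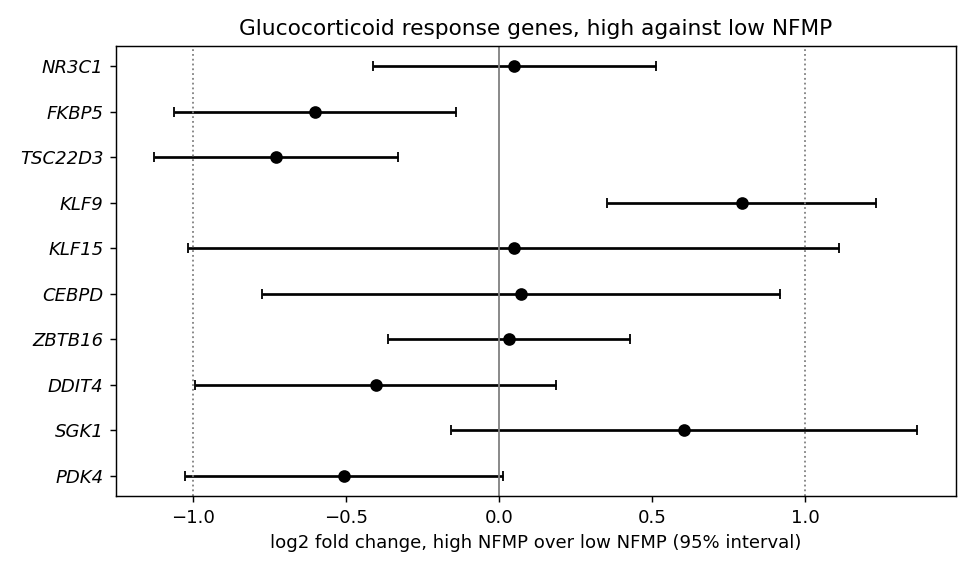
Log2 fold change of the 10 genes in the high-NFMP over the low-NFMP group with the 95% interval of edgeR's fit (3 steers a group); dotted lines mark a fold change of 2. The intervals of FKBP5, TSC22D3 and KLF9 leave out 0, and none of the 10 points lies beyond a dotted line.

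The libraries differed in how often they held the extreme value. Steer 10-16 had the highest normalized count of 5 of the 10 genes (FKBP5, TSC22D3, KLF15, CEBPD and PDK4), while it was the highest of the 6 in 13.6% of all tested rows. It was lowest for NR3C1, with steer 10-9 nearly as low. Steer 3-8 was highest for NR3C1 and, with steer 10-8 close to it, for KLF9. Steer 10-9 was lowest for FKBP5, TSC22D3 and DDIT4 and highest for SGK1 and ZBTB16. Steer 3-1 was lowest for KLF15, CEBPD and ZBTB16 and highest for DDIT4. The 10 genes together took 0.54% of the counts of steer 10-16, 0.413% and 0.455% of those of steers 3-3 and 3-1, and between 0.311% and 0.387% of those of the high-NFMP steers, and these shares are made up mostly of PDK4, ZBTB16 and FKBP5.

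Spread between steers of the same group differed widely among the 10 genes. The biological coefficient of variation estimated by edgeR was 39.7% for KLF15, 32.2% for CEBPD and 29.8% for SGK1, where the trend for rows of the same abundance was 23.7%, 19.6% and 21.0%. For TSC22D3, KLF9, ZBTB16, FKBP5 and NR3C1 it was 18.0%, 19.0%, 17.5%, 19.9% and 20.3%, close to or below the trend, which lay between 19.4% and 20.9%. KLF15, CEBPD and SGK1 had a larger within-group spread than 92.8%, 85.3% and 82.1% of all tested rows, whereas TSC22D3 and KLF9 had a larger one than 19.2% and 19.4%.

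The wider pathway was described with 10 lists that hold 115 other genes, of which 108 were tested, in 110 rows. By the p and fold change threshold 2 rows were higher (2.53% of all tested rows were) and 1 was lower (1.36% were), which is 2.73% of the 110 rows. Over all tested rows, 381 were higher and 205 lower, and without steer 3-8 these counts were 367 and 378. At an unadjusted p below 0.05 there were 18 rows, which is 16.4% of the 110 against 11.5% of all tested rows. Of these 5 were higher and 13 lower, where all tested rows were split into 5.73% higher and 5.74% lower. The median log2 fold change of the 110 rows was -0.05. The rows past the threshold were IRS2, PPARD and DNAJB1. The study had already reported each of them as different in these same libraries, and the lists were written with earlier results known. Its quantitative PCR of IRS2 and PPARD in 10 steers had the same direction without statistical significance. The gene with the most counts in each list is named as well, and the other list and marker genes named below were chosen after their values were seen.

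Among the 11 chaperones and cochaperones that hold the receptor ready for hormone, 1 passed the threshold (3.90% of all tested rows did). Of the 11, 2 had a positive log2 fold change (51.9% of all tested rows did), with a list median of -0.15. DNAJB1, an HSP40 cochaperone of HSP70, had 417, 449 and 621 normalized read counts in the high-NFMP steers and 1181, 851 and 1109.5 in the low-NFMP steers, a log2 fold change of -1.08 (SE 0.21, adjusted p = 0.0301 by edgeR). It lay close to the fold change limit and was short of it in 5 of the 14 alternative fits, at -0.97, -0.97, -0.99 and -0.998 without steer 3-8, 10-8, 3-1 or 10-16 and at -0.79 with age as a term. The adjusted p in the 14 fits ran from 0.000848, with DESeq2, to 0.334, with age as a term. HSPA8, the constitutive HSP70, was likewise lower in each high-NFMP steer (log2 fold change -0.60, unadjusted p = 0.0122 by edgeR, adjusted p = 0.274). The HSP90 genes HSP90AA1 and HSP90AB1, which encode the core of the receptor complex, had log2 fold changes of -0.02 and -0.29, and FKBP4, which counteracts FKBP5 on the same complex, had 0.29 (adjusted p = 0.982, 0.624 and 0.633).

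Of the genes that set the access of hormone, HSD11B1, whose enzyme regenerates cortisol from cortisone inside cells, had 247, 123 and 137 normalized read counts in the high-NFMP steers and 97.6, 155 and 112 in the low-NFMP steers. Its log2 fold change was 0.48 (adjusted p = 0.572 by edgeR), and steer 3-8 alone stood high. HSD11B2, the enzyme that inactivates cortisol, and SERPINA6, the corticosteroid-binding globulin of plasma, were below the filter, with at most 5.55 and 2.03 normalized read counts in any steer. NR3C2, the mineralocorticoid receptor, which also binds cortisol, had 3113, 3094 and 2523 in the high-NFMP steers and 3164, 2315 and 1243 in the low-NFMP steers. Steer 10-16 was lowest for NR3C2. The log2 fold change of NR3C2 was 0.38 (SE 0.28, adjusted p = 0.645 by edgeR), and it ran from 0.12 without steer 10-16 to 0.71 without steer 3-1 (unadjusted p = 0.0167 by edgeR). In the fit with a term for the opening label number it was 0.68 (unadjusted p = 0.0215 by edgeR).

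None of the 10 coactivators and corepressors passed the threshold (3.90% of all tested rows did). Of the 10, 3 had a positive log2 fold change (51.9% of all tested rows did). NCOA3 and NCOA1, p160 coactivators that nuclear receptors recruit, had log2 fold changes of -0.61 and -0.42 (unadjusted p = 0.01 and 0.0301, adjusted p = 0.255 and 0.374 by edgeR), and neither gene had overlapping groups, with the high-NFMP steers below. NCOA3 had 247, 201 and 291 normalized read counts in the high-NFMP steers, against 367, 366 and 393 in the low-NFMP group. NCOR1, a corepressor, had a log2 fold change of -0.16 (adjusted p = 0.76).

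The 27 other known targets of the receptor split in direction as the 10 genes did, with 13 of the 28 tested rows positive and a median log2 fold change of -0.04. IRS2, an adaptor of the insulin receptor, passed the threshold, with 523, 679 and 893 normalized read counts in the high-NFMP steers and 339.7, 277 and 394 in the low-NFMP steers. The groups did not overlap, and the log2 fold change was 1.05 (adjusted p = 0.0495 by edgeR). It was short of the fold change limit in 4 of the 14 alternative fits, at 0.85 without steer 10-9, 0.93 without steer 3-3, 0.88 in the fit with a term for the opening label number (adjusted p = 0.103) and 0.99 with library totals alone. The adjusted p was below 0.05 in 3 of the 14, and ran from 0.00403 to 0.269. The muscle ubiquitin ligases FBXO32 and TRIM63, which mark proteins for breakdown in atrophy, had log2 fold changes of 0.28 and 0.04 (adjusted p = 0.693 and 0.955). The value of FBXO32 was 0.01 without steer 3-3 and 0.71 with age as a term (unadjusted p = 0.034, adjusted p = 0.547 by edgeR). SESN1, a stress-induced inhibitor of mTORC1, had 2588, 2086 and 2202 normalized read counts in the high-NFMP steers and 2529.9, 6027 and 5038 in the low-NFMP steers. Its log2 fold change was -0.98 (adjusted p = 0.156 by edgeR), and steer 3-1 lay within the range of the high-NFMP steers. DUSP1, a phosphatase that switches off MAP kinases, CRISPLD2, a secreted protein, and PIK3R1, the regulatory subunit of PI3-kinase, were lower in each high-NFMP steer, with log2 fold changes of -0.48, -0.67 and -0.41 (adjusted p = 0.343, 0.268 and 0.413). CDKN1C, an inhibitor of the cell cycle, was higher in each, at 0.51 (adjusted p = 0.326). PER1, a clock gene with its own response elements, had 0.37 (adjusted p = 0.569).

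Of 21 relatives of the 10 genes, 18 were tested and none passed the threshold (3.90% of all tested rows did). At an unadjusted p below 0.05 by edgeR there were 4 of the 18, where 11.5% of all tested rows were. TSC22D1 and TSC22D4, which share the leucine zipper domain of TSC22D3, were lower in each high-NFMP steer, with log2 fold changes of -0.66 and -0.61 (adjusted p = 0.178 and 0.403 by edgeR). TSC22D1 had 1753, 2102 and 2519 normalized read counts in the high-NFMP steers and 3789, 2972 and 3308 in the low-NFMP steers. The fourth gene of that family, TSC22D2, had a log2 fold change of -0.14 (adjusted p = 0.817). Among the relatives of KLF9, KLF6 and KLF2 had log2 fold changes of 0.41 and 0.64 (adjusted p = 0.399 and 0.408). KLF6 lay higher in each high-NFMP steer, whereas for KLF2 steer 10-16 lay within the range of the high-NFMP group. CEBPB and SGK2 were below the filter.

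**Figure D3:**
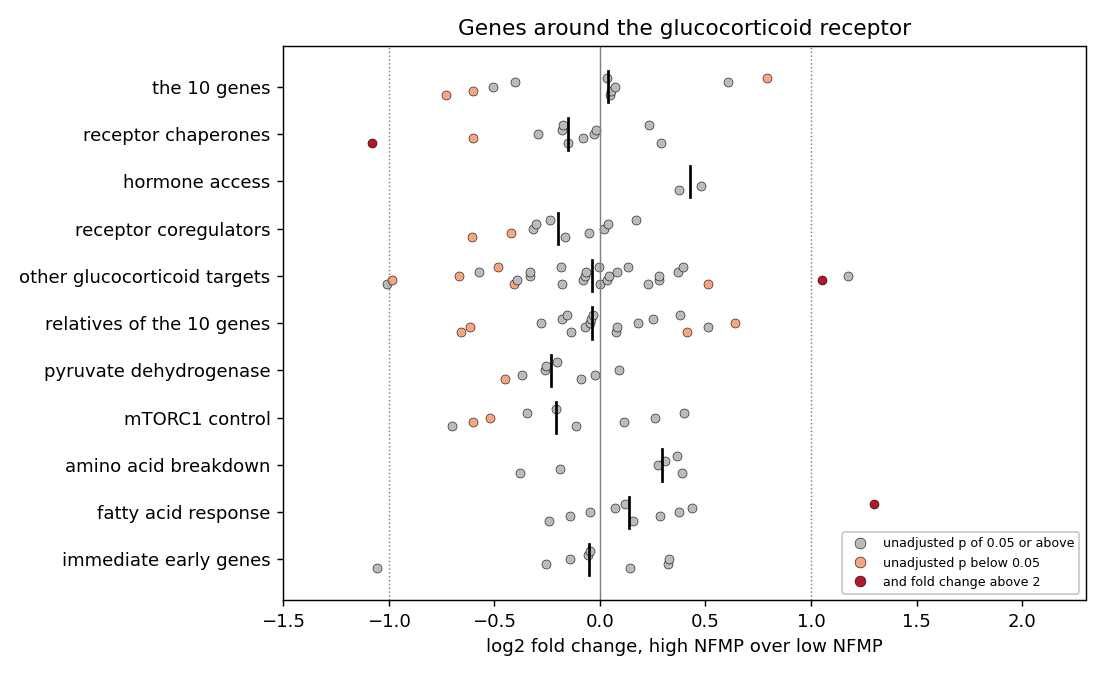
Log2 fold change of each tested row in the 10 genes and in the 10 lists around them, as 1 point a row, with the list median as a black line; colours give the unadjusted p and fold change, and dotted lines mark a fold change of 2. The points past the threshold are DNAJB1, IRS2 and PPARD.

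The genes on which PDK4 and DDIT4 act were also examined. Of the 8 genes of pyruvate dehydrogenase and its phosphatases none passed the threshold (3.90% of all tested rows did). In this list 1 gene had a positive log2 fold change (51.9% of all tested rows did), with a median of -0.23. PDP1, the phosphatase that reverses the action of PDK4, was lower in each high-NFMP steer (log2 fold change -0.45, adjusted p = 0.433 by edgeR), and PDHA1, the subunit that PDK4 phosphorylates, had -0.09 (adjusted p = 0.894). Of 9 mTORC1 genes none passed the threshold (3.90% of all tested rows did) and 3 had a positive log2 fold change, TSC2 (0.40), SESN3 (0.26) and TSC1 (0.12), with a list median of -0.21. RPTOR, its scaffold, and RPS6KB1, its kinase substrate, had log2 fold changes of -0.52 and -0.60 (adjusted p = 0.341 and 0.347). Of 6 genes for the breakdown of branched-chain amino acids and proline, in which KLF15 acts, none had an unadjusted p below 0.05 (11.5% of all tested rows did), and their log2 fold changes lay between -0.38 and 0.39, with BCKDHB highest.

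PDK4 is also a target of the PPAR factors. Of 10 fatty acid-responsive genes 1 passed the threshold (3.90% of all tested rows did). PPARD, the main PPAR of muscle fibres, had 878, 756 and 939 normalized read counts in the high-NFMP steers and 427, 234 and 387 in the low-NFMP steers, a log2 fold change of 1.30 (SE 0.23, adjusted p = 0.017 by edgeR), and it passed the p and fold change threshold in all 14 alternative fits, with an adjusted p below 0.05 in 11. UCP3, a mitochondrial carrier induced in fasting, had its highest count in steer 10-16, as PDK4 did. It had 19889.8, 18574 and 20406 in the high-NFMP steers and 14945, 20966 and 33591 in the low-NFMP steers (log2 fold change -0.24, adjusted p = 0.758 by edgeR). The log2 fold change of UCP3 turned to 0.16 without steer 10-16 and was -0.48 without steer 3-1. None of 8 immediate early genes, which respond to acute stress, had an unadjusted p below 0.05, where 11.5% of all tested rows did, and JUN, with the most counts among them, had a log2 fold change of -0.26 (adjusted p = 0.655).

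The libraries carried the markers of skeletal muscle. The 9 muscle genes, of which TTN had the most counts, summed to between 1690840.0 and 2111360.0 normalized read counts. The mean sum was 1857300.0 ± 172429 (SD, n = 3) for high NFMP and 1850780.0 ± 226297 (SD, n = 3) for low NFMP. Of these 9 genes 7 had a positive log2 fold change (51.9% of all tested rows did). Their median was 0.20, and TTN had -0.15. The 5 adipocyte genes, of which FABP4 had the most counts, reached sums of 8398, 3395 and 2739 in steers 3-8, 10-8 and 10-9, against 3011, 3689 and 2497 in steers 3-1, 3-3 and 10-16. Steer 3-8 stood high, and the other 5 steers overlapped. All 5 had a positive log2 fold change, none passed the threshold, and ADIPOQ and CIDEC were higher in each high-NFMP steer (log2 fold change 0.63 and 0.89, adjusted p = 0.291 and 0.214 by edgeR). The direction of FABP4 was reversed without steer 3-8, with a log2 fold change of 0.61 over all steers and -0.33 without that steer, and it was -0.11 with age as a term. For LEP, the other high-NFMP steers (47.8 and 52.2 normalized read counts) lay below all low-NFMP steers (63.2, 75.9 and 73.7). Without steer 3-8 the log2 fold changes of TSC22D3, FKBP5 and KLF9 were -0.75, -0.67 and 0.74. The 5 fibroblast and preadipocyte genes, led by DCN, summed to 12935 ± 1563 (SD, n = 3) and 10885 ± 1544 (SD, n = 3), and 4 of the 5 had a positive log2 fold change, between 0.16 (COL3A1) and 0.59 (LUM). The exception, PDGFRA, was lower in each high-NFMP steer (log2 fold change -0.51, adjusted p = 0.408 by edgeR). The 4 endothelial genes, led by PECAM1, summed to 961 ± 176 and 942 ± 129, and the 4 immune genes, led by CD163, to 316 ± 96.9 and 366 ± 124 (SD, n = 3 each). No marker was at 0 in all libraries and none passed the threshold with all steers. CD163 had a log2 fold change of -0.56, which ran from -0.18 without steer 10-8 or 3-3 to -1.18 without steer 3-8, where it passed (unadjusted p = 0.0176 by edgeR). Of the other immune genes, PTPRC went the other way, with a log2 fold change of 0.27 (adjusted p = 0.743 by edgeR). CD68 had -0.10 (adjusted p = 0.968 by edgeR), and CD3E was below the filter. The part of cell composition in the values of the 10 genes was not tested, and in whole muscle fewer cells of a type cannot be told apart from less RNA per cell.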

How the data were processed

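LT RNA of 6 steers was sequenced as 3′ mRNA libraries, and groups were taken from the sample labels. The authors deposited counts of reads for each gene symbol, not normalized. Their methods state mapping to UMD3.1 with Tophat2 and HTSeq counting, and elsewhere Bowtie2 with multiple alignments counted, and the submitters' processing notes name Bowtie2 and bedtools. Which of these made the counts, and whether strand was used, is not settled by the sources used here. The 10 genes and the lists were chosen with earlier results of these data known.

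Counts of 23015 rows (176 of them repeats of a symbol, kept as separate rows) were tested with edgeR 4.0.16 under R 4.3.3. Rows were filtered (minimum count 10, minimum total 15), TMM normalized with factors between 0.915 and 1.08, and tested with the robust quasi-likelihood test over all 15039 kept rows with Benjamini-Hochberg adjustment. Every row names a gene. Normalized read counts are scaled to the mean effective library size and not divided by length. Standard errors come from the fold change and the F statistic. Spread within groups is the SD of log2(normalized count + 1). Intervals are 95% and rest on 3 steers a group. Without molecular identifiers, reads are not separate molecules, and the spread between steers sets the intervals. No libraries agreed within counting noise, with a chi-square of at least 36.1 per degree of freedom for each pair.

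Genes named were the 10 genes, the row with the most counts in each list, list rows past a threshold, PDK1 to PDK3 and NR3C2, besides those said to be chosen later. H6PD and CEBPA had no row, and RGS2 and MT1E had 2 each. Overlapping genes came from the RefSeq table of ARS-UCD2.0, which is not the build named by the authors, so no coordinates are given. The 14 alternatives left out 1 steer at a time, dropped the filter, asked for 10 counts or more per library, scaled by RLE or by library totals, used DESeq2 1.42.0 or limma 3.58.1 (trended and robust, on quantile normalized log2(count + 1)), or added a term for age or for the number that opens the steer label. The procedure was first tested on simulated counts with known changes. It recovered 42% of 100 rows given a log2 fold change of 1, and 92% of 100 rows given 2. In each case 7 unchanged rows were called.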

Additional observations from a re-analysis of the deposited data

How the results depend on the processing

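The count of 0 of the 10 genes past the p and fold change threshold held in all 14 alternative fits. At an adjusted p below 0.05 it was 0 in 13 of them and 2 with DESeq2 (TSC22D3 and KLF9). At an unadjusted p below 0.05 the count of 3 ran from 2, without steer 10-9, to 4. Over all tested rows, the 586 past the p and fold change threshold became 969 without a filter and 364 with at least 10 counts in every library, which test more and fewer rows. The 103 rows at an adjusted p below 0.05 became 240 without a filter, 291 with DESeq2 and 31 with age as a term, and lay between 28 (without steer 3-3) and 82 (without steer 3-1) with 1 steer left out. Fits without a steer use fewer samples, and the cause of the changes with DESeq2 and age was not tested. The list rows past the threshold, 3 as reported, numbered between 2 and 4, and these alternatives for the lists were chosen after seeing the data. TSC22D3, FKBP5, KLF9, DDIT4, SGK1 and PDK4 kept their sign in all 14 fits, while NR3C1, KLF15, CEBPD and ZBTB16, with log2 fold changes near 0, did not. The labels give no replicate numbers that pair steers across the groups. The number that opens the steer label occurs in both groups, and with it as a term 0 of the 10 genes passed the p and fold change threshold and 4 had an unadjusted p below 0.05 (FKBP5, TSC22D3, KLF9 and PDK4). With 3 steers a group, the interval of KLF15 spans more than 2-fold in both directions. In a library 3 counts stand for between 2.78 and 3.33 normalized read counts, and SERPINA6 lay below this in every steer, so a difference in it was not detectable at this depth.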
